A study of Mus musculus with 18 samples.

Results

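The genes described here encode the protein components of the cytosolic ribosome. They were chosen by name alone: every row of the oocyte expression tables whose mouse symbol is Rpl or Rps with a number (or Rplp0, Rplp1, Rplp2 or Rpsa) was taken, and pseudogenes and the Rps6k kinases were left out. This gave 89 of 55471 gene rows, 53 of the large and 36 of the small subunit. Of these, 77 are the standard ribosomal protein genes (46 large, 31 small), called core genes below, and 12 are paralogs or retrogene copies such as Rps27l and Rpl39l. Ribosomal components under other names, such as Fau, fall outside the rule.

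The ribosome is built from a large subunit, which joins amino acids, and a small subunit, which reads the messenger RNA. Each mature ribosome holds about 1 copy of most of these proteins, and their messenger RNAs typically start with a pyrimidine tract (a 5′ terminal oligopyrimidine, or TOP, start) through which their translation is controlled together. Growing oocytes stockpile ribosomes for the embryo. Transcription is silent in the mature egg, held in metaphase of meiosis II (MII), so messenger RNA levels there depend on what was stored and what has decayed.

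Messenger RNA was measured in 3 libraries of wild-type (WT) MII oocytes and 3 labelled as Isca2 -/- (KO). Isca2 is a gene for building iron-sulfur clusters in mitochondria. The labels name no strain, age, allele design or number of oocytes, and the hormone protocol they give describes embryos of heterozygous crosses. Nothing states whether the replicates are different animals or pools, so p-values measure only the spread between these libraries, which may be technical.

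The libraries held 17792157 to 30240350 expected counts. Isca2 itself had a level of 2.35, 2.17 and 15.41 TPM in WT replicates 1, 2 and 3, where TPM is a level per transcript length on a scale common to all libraries. KO replicates 1, 2 and 3 had 5.66, 7.40 and 8.70 TPM. Its level in those libraries thus lay above WT replicates 1 and 2 and below WT replicate 3. Its log2 fold change was 0.59 (SE 0.89, edgeR adjusted p = 0.907) with all 6 libraries. Without WT replicate 3 it was 2.48 (SE 0.55, edgeR adjusted p = 0.0969), where DESeq2 called Isca2 higher (3.02% of all genes). Isca2 was thus not called lower, and every direction below is between libraries as labelled. Of 20 oocyte markers, 19 or 20 exceeded 1 TPM in each library, with Gdf9, an oocyte growth factor, at 2387 to 3071 TPM and Figla, a transcription factor of early oocytes, at 0.45 to 6.37 TPM. WT replicate 3 stood apart. Its Pearson correlation with the other libraries was 0.881 to 0.903 over 13680 genes, against 0.930 to 0.960 for the other pairs. Of 20 macrophage, leukocyte and blood markers, 16 exceeded 1 TPM in it and 3 to 5 elsewhere, with a summed level of 2865 TPM against 138 to 166 TPM, of which Ms4a1 alone gave 124 to 150 TPM in every library. The macrophage gene Adgre1 had 138 TPM there and at most 0.18 TPM elsewhere. Oocyte genes differed there too: Zp3, which encodes a protein of the egg coat, had 1625 TPM in WT replicate 3 and 296 to 428 TPM elsewhere. The markers of granulosa and cumulus cells, the somatic companions of the oocyte, were 18 genes that summed to 50.4 to 69.4 TPM in WT and 56.3 to 116 TPM in the libraries labelled KO. Cyp19a1 alone gave 28.4 to 39.0 TPM of the sum in every library. Foxl2, a defining granulosa gene, was at 0 counts in all WT libraries and KO replicate 1 and reached 0.10 TPM at most. Others on the list were present and unequal: Hsd17b1, a steroid enzyme gene, had 1.31, 0 and 0.62 TPM in WT and 2.47, 14.37 and 21.54 TPM in KO, and Fshr, the receptor of follicle-stimulating hormone, had 0.24, 0 and 0.09 TPM in WT and 0.78, 0.43 and 2.69 TPM in KO. Inha, an inhibin subunit gene, had 6.05, 0.15 and 0.31 TPM in WT and 0.22, 4.47 and 34.71 TPM in KO. Others went the other way: Ptgs2 and Ptx3 had 9.04 and 2.75 TPM in WT replicate 3 and at most 0.59 and 0.04 TPM in KO. Kitl had 4.09 to 10.85 TPM over all libraries. Of the 11 tested genes of this list, 8 log2 fold changes were positive and 3 negative with all 6 libraries. Each result below is therefore given with and without WT replicate 3, and the part of these other cells in it was not tested. In such bulk samples, fewer cells of a type and less RNA per cell cannot be told apart.

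The sequence at the start of these genes is shown first, because the TOP start is the feature through which they are known to be controlled together. RefSeq promoter sequences (GRCm38.p6) were matched by symbol for 64 of the 89 genes, among them 57 core genes. Each line gives 40 bases before the annotated start and 15 from it on, read 5′ to 3′ along the gene, and capitals mark the run of C and T that begins with a C exactly at the annotated start. The first 3 genes were among those higher in the libraries labelled KO without WT replicate 3, the next 2 were stable in all 6 libraries, and the last 3 had no such run at the annotated start although 2 of them, Rps9 and Rpsa, were also higher.
Rps27 (chr3:90213634-90213688, minus strand): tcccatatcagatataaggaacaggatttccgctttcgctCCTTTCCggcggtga
Rps18 (chr17:33955651-33955705, minus strand): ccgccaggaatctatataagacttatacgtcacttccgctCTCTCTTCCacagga
Rps6 (chr4:86857353-86857407, minus strand): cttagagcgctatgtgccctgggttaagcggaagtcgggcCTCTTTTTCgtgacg
Rps15a (chr7:118116133-118116187, minus strand): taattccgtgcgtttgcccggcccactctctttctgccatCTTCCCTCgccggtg
Rplp2 (chr7:141447611-141447665, plus strand): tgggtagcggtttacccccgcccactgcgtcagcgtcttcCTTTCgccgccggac
Rps9 (chr7:3704001-3704055, plus strand): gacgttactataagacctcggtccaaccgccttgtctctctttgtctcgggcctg
Rpsa (chr9:120127726-120127780, plus strand): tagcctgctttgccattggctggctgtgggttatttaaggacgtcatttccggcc
Rps27l (chr9:66946046-66946100, plus strand): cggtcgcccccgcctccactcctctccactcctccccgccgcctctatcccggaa

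A C at an annotated start followed by at least 4 pyrimidines was found in 14 of the 64 matched genes (21.9%) and in 813 of 27025 genes in the table (3.01%). The exact start is a strict criterion: in Rps9 a pyrimidine run spans the annotated start without beginning at it. A run of at least 8 pyrimidines anywhere from 40 bases before to 15 after a start was present in 36 of 64 (56.2%), against 25.7% of all genes. The motif CCGGAAG, a core of ETS family sites, was searched on both strands of the 300 bases around the start (250 before, 50 from it on). It was present in 26 of 64 genes (40.6%) against 9.93% of all genes. AAGATGG, a core of YY1 sites, stood in 10 of 64 (15.6%, against 7.28%) and TATAAA in 8 of 64 (12.5%, against 15.7%). None of these 3 motifs contains another. These matches describe letters and not occupied sites. The 13 core genes with a TOP start by this criterion had a median log2 fold change of 0.61 without WT replicate 3, with 3 called higher. The 44 other matched core genes had 0.94, with 4 called higher (0.574% of all genes were). For the 13 and the 44 genes, DESeq2 called 6 and 25 higher (3.02% of all genes) and limma-voom 0 and 1 (0.0354%). An unadjusted p under 0.05 was reached by 7 and 30 higher (7.68%). All 3 libraries labelled KO lay above both WT libraries for 53.8% and 75% (13.4% of all genes). With all 6 libraries the order of the medians turned, at -0.05 and -0.37. None was then called in either set (by edgeR, DESeq2 or limma-voom, or at an unadjusted p under 0.05).

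The level of the core genes differed widely between genes and between libraries. Of the 89 genes, 79 exceeded 1 TPM in every library, and among the 77 core genes only Rpl9 and Rps3 fell to 1 TPM or less, both in WT replicate 2. Rpl3l, a muscle paralog of Rpl3, and Rps12l1 were at 0 counts in all 6 libraries, and Rpl32l had at most 2 counts. The median core gene had 26.04, 15.01 and 173 TPM in WT replicates 1, 2 and 3. It had 42.5, 54.3 and 52.3 TPM in KO replicates 1, 2 and 3. The libraries labelled KO thus lay between WT replicates 1 and 2 on one side and WT replicate 3 on the other.

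**Figure D1:**
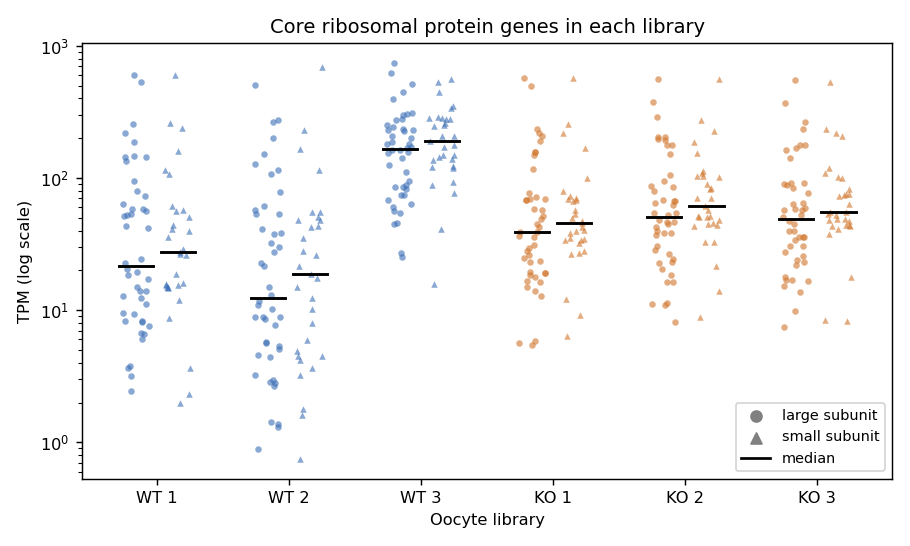
TPM on a log scale (vertical axis) of the 77 core ribosomal protein genes in each of the 6 oocyte libraries (horizontal axis). Circles are large-subunit and triangles small-subunit genes, blue is WT, orange is KO, and bars are medians. WT 3 has the highest medians and the narrowest spread, and WT 2 the lowest medians and the widest spread.

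Messenger RNAs of proteins needed in equal numbers were far from equal in level. In WT replicate 2 the core genes differed by up to 919-fold, and the SD of their log2 TPM was 2.27. In WT replicate 1 the SD was 1.94. In the 3 libraries labelled KO it was 1.47, 1.35 and 1.33, and in WT replicate 3 it was 1.11. The order of the genes was nevertheless shared. Across the 77 core genes, Spearman's rho was 0.941 between WT replicates 1 and 2 and 0.931 to 0.974 between libraries labelled KO. It was 0.749 to 0.937 between a library labelled KO and WT replicate 1 or 2. WT replicate 3 had rho of 0.600 to 0.770 with the others. These are correlations across genes, which are not independent replicates. Shorter transcripts tended to have higher TPM (rho of -0.42 between length and the median TPM of the 5 other libraries, n = 77 genes), a description that shares the length correction of the TPM scale itself.

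A few genes carried much of the total. Rps27l, a paralog of Rps27 known as a p53 target, was the most abundant of the 89 in all 6 libraries. It had 2073, 2206 and 1549 TPM in WT replicates 1, 2 and 3 and 2430, 2305 and 2404 TPM in the libraries labelled KO. All libraries labelled KO lay above all WT libraries, although the log2 fold change of 0.39 (SE 0.20, edgeR adjusted p = 0.767) did not pass the test. It also did not pass without WT replicate 3 (0.19, SE 0.10, adjusted p = 0.522). Rplp2, which encodes an acidic protein of the ribosomal stalk that recruits translation factors, had 600, 504 and 515 TPM in WT and 571, 559 and 547 TPM in KO. Rpl41, which encodes a very short large-subunit peptide, had 535, 267 and 739 TPM in WT and 494, 374 and 370 TPM in KO. The 4 most abundant genes of each library made up 49.8% and 56.7% of the summed TPM in WT replicates 1 and 2, 40.2% to 46.8% in KO, and 20.0% in WT replicate 3.

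At the low end stood genes whose products are as much a part of every ribosome. Rps20 had 1.98, 1.80 and 15.7 TPM in WT and 9.26, 14.02 and 8.49 TPM in KO. Rpsa, which encodes the small-subunit protein also known as the laminin receptor, had 2.30, 1.61 and 41.4 TPM in WT and 6.41, 8.91 and 8.32 TPM in KO. Among the tested paralogs the lowest were Rpl6l (median 2.89 TPM) and Rpl7l1 (median 3.28 TPM).

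The spread between libraries was wider for these genes than for most genes. Over the 6 libraries the median SD of log2 CPM (counts scaled to library size) was 1.01 for the 83 tested members, against 0.39 for all 13680 tested genes. Over the 5 libraries other than WT replicate 3 it was 0.68 against 0.35. Single members spanned SDs from 0.09 (Rps15a) to 2.53 (Rpl9) over 6 libraries. Rps15a, a small-subunit gene, had 261, 230 and 262 TPM in WT and 255, 272 and 233 TPM in KO. Rpl9, a large-subunit gene, had 3.79, 0.89 and 182 TPM in WT and 18.4, 38.3 and 30.6 TPM in KO, a range of 205-fold. WT replicate 3 was the highest library for 71 of the 77 core genes (36.4% of all tested genes), and WT replicate 2 the lowest for 64 of 77 (24.2% of all tested genes). WT replicate 3 exceeded 2 times the mean of WT replicates 1 and 2 for 70 of 77 core genes (22.7% of all tested genes), and 10 times for 24 of 77 (4.28%). It was lower than that mean for 4 core genes, among them Rpl17, Rpl37 and Rplp2. WT replicates 1 and 2 also differed from each other, with a median core ratio of 1.61.

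**Figure D2:**
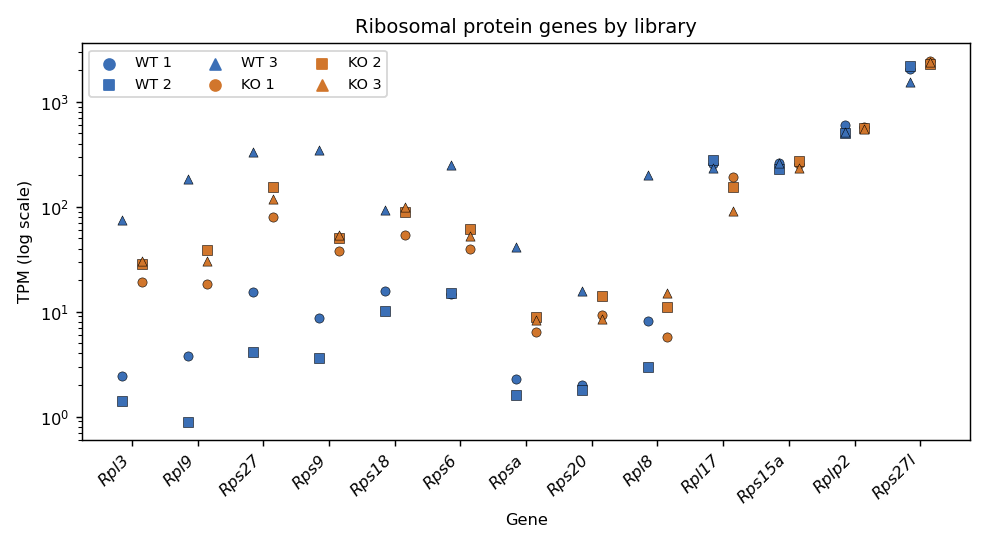
TPM on a log scale (vertical axis) of 13 ribosomal protein genes (horizontal axis) in each library; blue is WT, orange KO, and the marker shape gives the replicate number. For the 7 genes at the left, WT 1 and WT 2 are below the libraries labelled KO and WT 3 is above them (for Rps18, above KO 1 and KO 2 only), whereas Rps15a and Rplp2 stay within a narrow band.

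The first comparison asked which of these genes differed between the oocytes labelled KO and WT when all 6 libraries were used. None of the 83 tested members was called higher and none lower by edgeR's quasi-likelihood test with Benjamini-Hochberg adjustment over all 13680 tested genes (0% of all genes were called higher and 0.0146% lower). At an unadjusted p under 0.05, 0 members were higher (2.89% of all genes) and 1 was lower (3.3%). DESeq2 called 0 members in either direction (0.592% of all genes higher, 0.146% lower), and limma-voom also 0 (0% and 0.0146%). The 6 members not tested, for low counts, were Rpl3l, Rpl10l, Rpl32l, Rps3a2, Rps3a3 and Rps12l1. The median log2 fold change was -0.35, with 61 negative and 22 positive values, against a median of -0.04 for all tested genes. The sign was not stable: the median was 0.93 without WT replicate 3, and on all 6 libraries it was 0.15 with limma-voom and 0.28 with the replicate number as a block in edgeR.

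Rpl17, a large-subunit gene at the exit of the peptide tunnel, was the member with the smallest p in 6 libraries. It had 258, 277 and 233 TPM in WT and 192, 153 and 90.5 TPM in KO, so the groups did not overlap. Its log2 fold change was -0.77 (SE 0.29, edgeR adjusted p = 0.766), and -0.93 (SE 0.25, adjusted p = 0.164) without WT replicate 3. Rpl8, another large-subunit gene, had the most negative value (-2.50, SE 1.36, adjusted p = 0.767), which came from 201 TPM in WT replicate 3. Its other WT libraries had 8.21 and 2.98 TPM and the libraries labelled KO 5.80, 11.2 and 15.2 TPM, and without WT replicate 3 the value was 1.002 (SE 0.54, adjusted p = 0.537). In all, Rps27l was the single member whose 3 KO values all lay above the WT values, and Rpl17 the single one whose values all lay below (4.93% and 7.3% of all tested genes).

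The second comparison left out WT replicate 3. In these 5 libraries 12 of 83 tested members rose in the oocytes labelled KO (0.574% of all 14122 tested genes were called higher) and none fell (0.0779%). They were 8 small-subunit genes, among them Rps6, Rps9, Rps18, Rps20, Rps25, Rps27 and Rpsa, and the large-subunit genes Rpl3, Rpl7, Rpl9 and Rpl23a. At an unadjusted p under 0.05, 51 members were higher (7.68% of all genes) and 1 was lower (3.89%). The median log2 fold change of the members was 0.93 against 0.01 for all tested genes, with 77 positive and 6 negative values. All 3 libraries labelled KO lay above both WT libraries for 58 of 83 members (13.4% of all tested genes), and below both for 2, Rpl17 among them (14.5%). The number called rested on single libraries and on the tool. Without KO replicate 1 it was 23, where 143 of all 13617 tested genes were called in either direction. Without KO replicate 2 it was 3 (27 of 13532 genes), and without KO replicate 3 it was 1 (10 of 13542). Calls over all genes, 92 of 14122 in the 5 libraries, thus moved the same way. Leaving out WT replicate 1 or 2 as well leaves 1 WT library. The members' median log2 fold change was then 1.35 and 0.80. DESeq2 called 43 members higher (3.02% of all genes) and limma-voom 2 (0.0354%), and no member was called lower by either (0.538% and 0.0425% of all genes). In the same 5 libraries the granulosa and cumulus markers had 8 and 10 of 18 genes at 0 counts in WT replicates 1 and 2 and 5, 3 and 5 in KO. One of them, Inhbb, a hormone subunit gene, was called higher (0.01 and 0 TPM against 0.67, 1.53 and 3.77 TPM), and DESeq2 called 2 of the 11 tested. Of the 11, 4 were higher and 0 lower at an unadjusted p under 0.05, and 9 values were positive. The part of such cells in the members' result was not tested.

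Rpl3, a large-subunit protein near the peptidyl transferase centre, had the smallest p of any member. It had 2.43 and 1.4 TPM in WT replicates 1 and 2 (46.94 and 26.95 expected counts) and 19.0, 28.5 and 30.6 TPM in the libraries labelled KO. WT replicate 3 had 74.1 TPM, above all of them. Without that library it was 13.8-fold higher (log2 fold change 3.79, SE 0.35, edgeR adjusted p = 0.00411), and with all 6 the log2 fold change was 0.17 (SE 1.24, adjusted p = 0.988). Rps9, a small-subunit gene, had 8.67 and 3.65 TPM in WT replicates 1 and 2, 38.2, 50.3 and 53.7 TPM in KO, and 351 TPM in WT replicate 3. Its log2 fold change was 2.998 (SE 0.37, adjusted p = 0.0164) without WT replicate 3 and -1.16 (SE 1.38, adjusted p = 0.876) with it.

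Rps18, a small-subunit gene, was the exception among the 12 in WT replicate 3. It had 15.9 and 10.2 TPM in WT replicates 1 and 2 and 92.8 TPM in WT replicate 3, against 53.5, 90.0 and 99.9 TPM in KO. Its log2 fold change was 2.73 (SE 0.34, edgeR adjusted p = 0.0164) without WT replicate 3 and 1.25 (SE 0.75, adjusted p = 0.787) with it. For the other 11, no library labelled KO reached the level of WT replicate 3. This held for 72 of the 77 core genes, and the share over all tested genes was not counted. WT replicate 3 was the highest of all 6 libraries for 71 of the 77 (36.4% of all tested genes).

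Rps6 encodes the small-subunit protein phosphorylated by the S6 kinases downstream of mTOR. WT replicates 1 and 2 were close together at 14.68 and 15.01 TPM, the libraries labelled KO had 40.01, 61.8 and 52.2 TPM, and WT replicate 3 had 250 TPM. The log2 fold change without WT replicate 3 was 1.84 (SE 0.24, edgeR adjusted p = 0.0186), and with it -0.67 (SE 0.997, adjusted p = 0.906). Rpsa and Rps20, whose levels are given above, had log2 fold changes of 2.37 (SE 0.35, adjusted p = 0.0255) and 2.42 (SE 0.42, adjusted p = 0.0439) without WT replicate 3, and -0.95 and 0.28 with it. Rpl9 had 3.64 (SE 0.56, adjusted p = 0.0262) without it and -0.93 (SE 1.48) with it. Its WT replicates 1 and 2 held 33 and 8 counts. Rpl23a and Rps25 were named after their values were seen. They had log2 fold changes of 2.80 and 1.58 without WT replicate 3, and -0.37 and -0.17 with it.

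**Figure D3:**
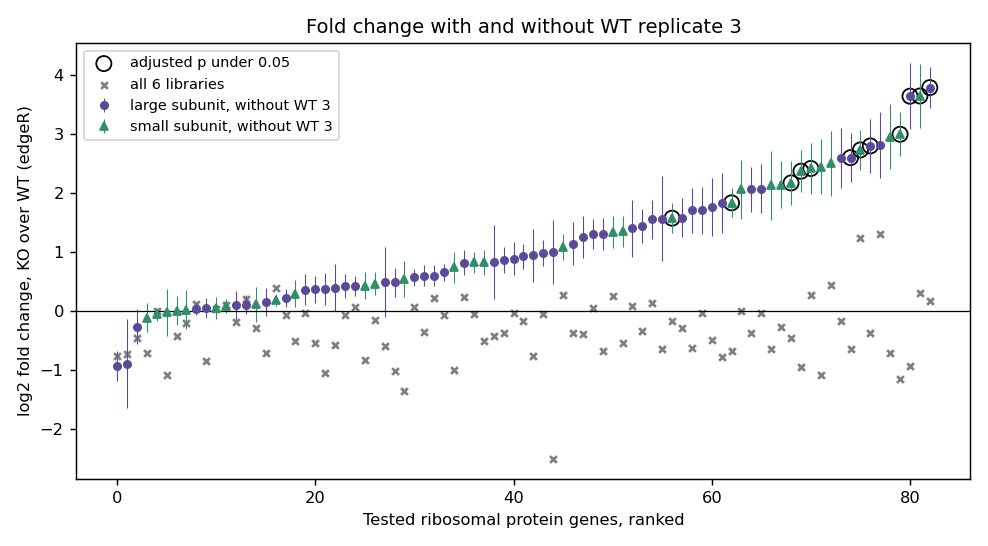
log2 fold change of KO over WT from edgeR (vertical axis) for the 83 tested ribosomal protein genes, ranked by the fit without WT replicate 3 (horizontal axis, rank). Circles (large subunit) and triangles (small subunit) with bars of 1 SE are the fit without WT 3, rings mark the 12 genes with an adjusted p under 0.05, and grey crosses are the fit of all 6 libraries. Nearly all values are above 0 without WT 3, and most crosses are below 0.

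The size of the difference went with the level of the gene. The core genes were ordered by their median TPM over the 6 libraries. The 25 lowest (6.42 to 36.0 TPM) had a median log2 fold change of 1.58 without WT replicate 3, and 5 of them rose. The 26 in the middle (36.2 to 65.3 TPM) had 0.88, with 4 called, and the 26 highest (71.4 TPM or more) had 0.52, with 3 called. Over all tested genes 0.574% were called higher. The counts called differed little between these groups, unlike the medians. With all 6 libraries these medians were -0.38, -0.56 and -0.02. The median SD of log2 CPM over 6 libraries was 1.28, 1.08 and 0.56 in the same order. Rplp2, among the core genes with the highest medians, had a log2 fold change of 0.04 (SE 0.11) without WT replicate 3. Level and fold change come from the same libraries, so this is a description with no test. The stalk genes showed the same grading without WT replicate 3. Rplp0, which anchors the stalk, had 58.2, 57.7 and 244 TPM in WT and 69.9, 105 and 83.3 TPM in KO (0.60, SE 0.18, edgeR adjusted p = 0.202 without WT replicate 3). Rplp1, the partner of Rplp2, had 219, 128 and 444 TPM in WT and 233, 205 and 233 TPM in KO (0.43, SE 0.20, adjusted p = 0.466). With all 6 libraries the log2 fold changes of Rplp0, Rplp1 and Rplp2 were -0.35, -0.06 and 0.12.

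In both subunits the median gene was lowest in WT replicate 2 and highest in WT replicate 3. The median large-subunit core gene had 21.5, 12.4 and 166 TPM in WT replicates 1, 2 and 3 and 39.1, 50.4 and 49.3 TPM in KO replicates 1, 2 and 3. The median small-subunit core gene had 27.5, 18.9 and 192 TPM in WT and 45.3, 61.8 and 55.2 TPM in KO. The small-subunit median was thus higher in each of the 6 libraries. Summed over core genes, the large subunit held 61.3%, 58.1% and 56.9% of the TPM in WT and 60.6%, 58.0% and 58.1% in KO, and the groups overlapped. Over all 89 genes, Rps27l included, the large-subunit share was 44.7%, 38.4% and 51.9% in WT and 43.6%, 43.8% and 42.7% in KO. Without WT replicate 3 the median log2 fold change was 0.94 for 46 core large-subunit genes and 1.35 for 31 core small-subunit genes. With all 6 libraries these medians were -0.30 and -0.43. Without WT replicate 3 edgeR called 4 large and 8 small higher (0.574% of all genes) and 0 lower. In the same order DESeq2 called 25 and 18 higher (3.02%) and limma-voom 1 and 1 (0.0354%). An unadjusted p under 0.05 was reached by 30 and 21 higher (7.68%) and by 1 and 0 lower. All 3 libraries labelled KO lay above both WT libraries for 34 (73.9%) and 21 (67.7%), against 13.4% of all tested genes. They lay below both for 1 and 1. The difference between the subunits was not tested.

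The 89 genes together took 0.765%, 0.648% and 1.74% of all TPM in WT replicates 1, 2 and 3, whereas KO replicates 1, 2 and 3 had 0.869%, 0.947% and 0.905%. The mean was 1.05% ± 0.60 (SD, n = 3) in WT, 0.706% ± 0.083 (n = 2) without replicate 3, and 0.907% ± 0.039 (n = 3) in KO. The libraries labelled KO lay above WT replicates 1 and 2 and below replicate 3. Rps27l alone made up 27.1%, 34.0% and 8.91% of this sum in WT and 28.0%, 24.3% and 26.6% in KO.

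**Figure D4:**
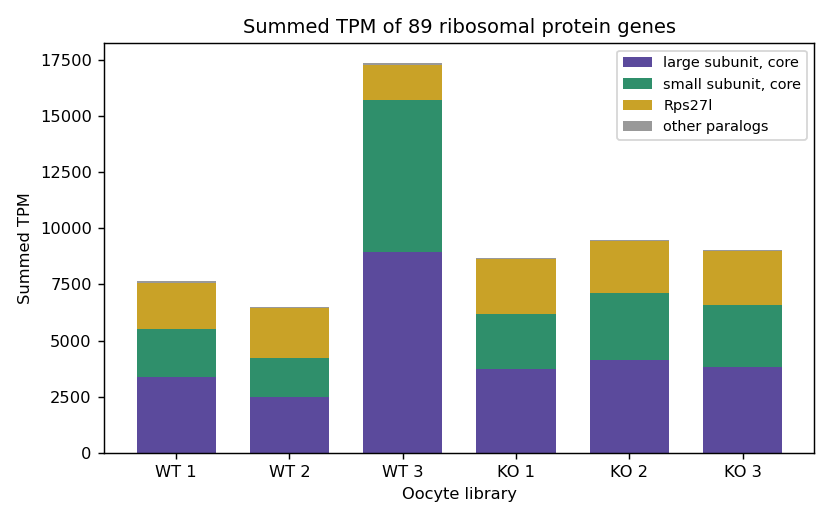
Summed TPM (vertical axis) of the 89 ribosomal protein genes in each library (horizontal axis), split into core large-subunit genes, core small-subunit genes, Rps27l and the other paralogs. WT 3 has 17387 TPM and the other libraries 6479 to 9466 TPM, while the Rps27l segment is of similar height in the other 5 and lower in WT 3.

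The paralogs were read beside their standard partners. In all 6 libraries Rps27l exceeded Rps27. Rps27 had 15.5, 4.17 and 336 TPM in WT and 79.1, 155 and 119 TPM in KO, so the ratio of Rps27l to Rps27 was 134, 529 and 4.61 in WT and 30.7, 14.9 and 20.1 in KO. Rps27 rose without WT replicate 3 (log2 fold change 3.65, SE 0.54, edgeR adjusted p = 0.0255, and 0.31, SE 1.24, with all 6), on 30 and 8 counts in WT replicates 1 and 2.

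Rpl39l, known from male germ cells, was close in level to the standard gene Rpl39. It had 24.4, 19.2 and 35.3 TPM in WT and 26.6, 14.9 and 14.8 TPM in KO. Rpl39 had 12.3, 4.54 and 74.2 TPM in WT and 16.7, 16.4 and 13.7 TPM in KO. The paralog was the higher of the 2 in all libraries except WT replicate 3 and KO replicate 2. Rps4l likewise was measured beside the X-linked Rps4x. Rps4l had 25.1, 15.6 and 33.9 TPM in WT and 27.7, 21.3 and 13.4 TPM in KO, and Rps4x 39.6, 26.1 and 291 TPM in WT and 40.6, 70.4 and 49.1 TPM in KO.

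Rpl22l1 was below Rpl22 in each library, at 2.86, 1.91 and 26.7 TPM in WT and 9.39, 4.77 and 6.48 TPM in KO, and Rpl22 had 10.9 to 54.3 TPM over the 6. Rpl7l1 had 0.94 to 8.82 TPM. Its partner Rpl7 had 8.19, 2.79 and 169 TPM in WT and 26.1, 46.3 and 33.7 TPM in KO and rose without WT replicate 3 (log2 fold change 2.602, SE 0.41, edgeR adjusted p = 0.0303, and -0.65 with all 6). Rpl10l reached at most 0.94 TPM, against 61.9 to 396 TPM for the X-linked Rpl10, and Rpl3l had no count beside Rpl3. Of the 6 tested paralogs none was called in either comparison, by edgeR, DESeq2 or limma-voom, and at an unadjusted p under 0.05 the edgeR count was also 0. Their median log2 fold change without WT replicate 3 was 0.11, against 0.98 for the 77 core genes. With all 6 libraries the medians were -0.44 and -0.33.

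**Figure D5:**
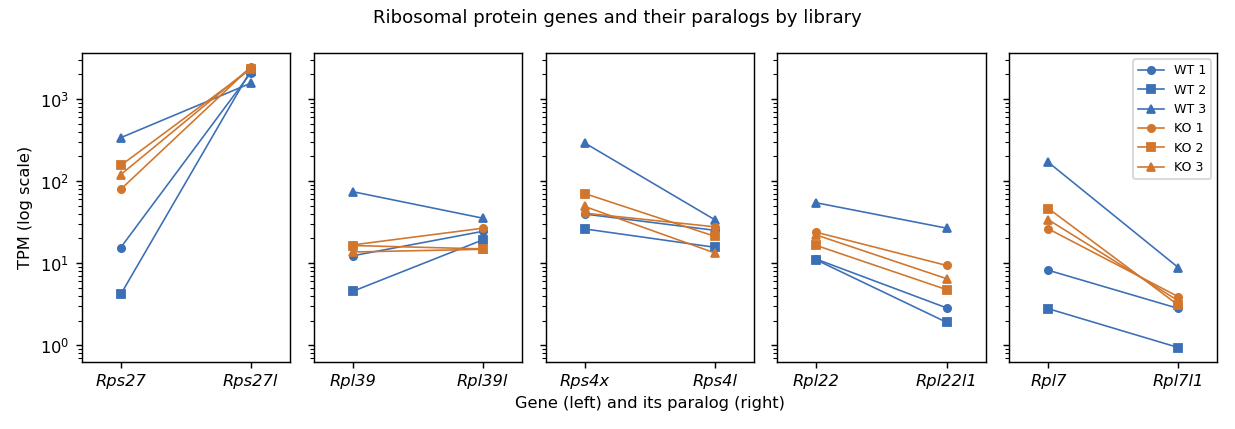
TPM on a log scale (vertical axis) of 5 standard ribosomal protein genes (left of each panel) and their paralogs (right), with a line for each library; blue is WT, orange KO. The libraries are spread out for Rps27, Rpl7 and Rps4x and drawn together for Rps27l and Rps4l. For Rpl22 the paralog is the more spread out: Rpl22l1 has 1.91 to 26.69 TPM and Rpl22 has 10.93 to 54.25 TPM.

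Reads of ribosomal protein genes can also be assigned to their many processed pseudogenes, since the counting shares reads among near-identical copies, and single genes are uncertain to that extent. The 300 rows named as ribosomal protein pseudogenes summed to 75.2 to 179 TPM, which is 0.931% to 1.16% of the level of the 89 genes in each library, and 60 of them exceeded 1 TPM in any library. Pseudogenes without such a name were not counted.

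Other genes of protein synthesis were read from the same fits. Of 20 translation factors and other TOP messenger RNAs, 0 were called with all 6 libraries by edgeR, DESeq2 or limma-voom. An unadjusted p under 0.05 was reached by 0 higher and 1 lower (2.89% and 3.3% of all genes). Without WT replicate 3 Eef1a1, the elongation factor that delivers aminoacyl-tRNA, rose (0.574% of all genes) and none fell (0.0779%). At an unadjusted p under 0.05, 6 of the 20 were then higher (7.68% of all genes) and 0 lower, and DESeq2 called 2 higher (3.02%). Eef1a1 had 22.7, 23.2 and 318 TPM in WT and 60.1, 106 and 82.2 TPM in KO (log2 fold change 1.76, SE 0.24, edgeR adjusted p = 0.0186, and -0.58, SE 0.96, with all 6). Fau, a fusion gene that encodes a further ribosomal protein, had 209, 122 and 869 TPM in WT and 178, 129 and 119 TPM in KO. Its log2 fold change was -1.32 (SE 0.62, edgeR adjusted p = 0.766) with all 6 libraries and -0.19 (SE 0.23, adjusted p = 0.840) without WT replicate 3. Vim, which encodes an intermediate filament of somatic cells, had 0.20, 0.41 and 26.2 TPM in WT and 4.99, 3.60 and 1.06 TPM in KO (4.88, SE 0.93, adjusted p = 0.0582 without WT replicate 3, and -2.19, SE 1.83, adjusted p = 0.819 with all 6).

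Of 35 genes of ribosome biogenesis none was called in either comparison by edgeR. At an unadjusted p under 0.05 there were 1 higher and 1 lower with all 6 libraries (2.89% and 3.3% of all genes), and 3 and 2 without WT replicate 3 (7.68% and 3.89%), where DESeq2 called 1 lower (0.538%). Polr1a, the largest subunit of the polymerase that makes ribosomal RNA, had 9.75, 7.13 and 5.38 TPM in WT and 4.80, 4.90 and 3.22 TPM in KO (log2 fold change -0.75, SE 0.27, edgeR adjusted p = 0.766 with all 6 and -0.91, SE 0.25, adjusted p = 0.163 without WT replicate 3). Bop1, a factor for the large subunit, had 0 counts in WT replicates 1 and 2, 137 in WT replicate 3, and 14, 5 and 17 counts in KO.

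Of 13 kinases and regulators of ribosomal protein synthesis, 1 rose without WT replicate 3 by edgeR (0.574% of all genes) and 0 fell (0.0779%). With all 6 libraries edgeR called 0. At an unadjusted p under 0.05, 0 were higher and 1 lower with all 6 (2.89% and 3.3% of all genes). Without WT replicate 3 there were 1 higher and 1 lower (7.68% and 3.89%). DESeq2 called 1 lower with all 6 libraries (0.146%) and 1 higher without WT replicate 3 (3.02%). The one that rose, Eif4ebp1, encodes the mTOR target that holds back cap-dependent initiation. It had 3.71, 3.83 and 16.8 TPM in WT and 16.4, 23.9 and 29.2 TPM in KO (log2 fold change 2.49, SE 0.30, edgeR adjusted p = 0.0164, and 1.38, SE 0.62, adjusted p = 0.766 with all 6). Rps6ka1, a kinase of the Rps6k group, had 3.80, 2.68 and 13.8 TPM in WT and 2.38, 1.49 and 1.38 TPM in KO (-2.02, SE 0.57, adjusted p = 0.766 with all 6, and -1.08, SE 0.32, adjusted p = 0.189 without WT replicate 3).

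The ribosomal protein genes of the mitochondrion and the subunits of the proteasome, which also form large complexes of fixed make-up, had smaller SDs. The 78 mitochondrial ribosomal protein genes had a median SD of log2 CPM of 0.34 over 6 libraries and 0.29 over 5, and a median log2 fold change of 0.07 with and 0.15 without WT replicate 3. None of them was called by edgeR in either comparison. At an unadjusted p under 0.05 there were 2 higher and 1 lower with all 6 libraries (2.89% and 3.3% of all genes; DESeq2 0). Without WT replicate 3 there were 12 and 1 (7.68% and 3.89% of all genes), and DESeq2 called 5 higher (3.02%). The 34 tested proteasome genes had a median SD of 0.23 over 6 and 0.19 over 5 libraries, and a median log2 fold change of 0.00074 with and 0.07 without WT replicate 3. None was called by edgeR in either comparison. With all 6 libraries 1 was higher at an unadjusted p under 0.05 (2.89% of all genes; DESeq2 0), and 8 were higher without WT replicate 3 (7.68%), where DESeq2 called 3 (3.02%). The difference between these sets and the cytosolic genes was not tested.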

How the data were processed

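The data are 6 MII oocyte gene tables, 1 per library, with expected counts and TPM deposited by the authors in RSEM's layout, per the file headers. Transcript lengths stand in the same tables. The submitters' processing notes name RSEM 1.3.1, STAR 2.6.1c, DESeq2 1.42.1 and Trim Galore 0.4.5, and the builds mm10 and GRCm38, with no roles. No strand setting or annotation release is stated, so overlapping and antisense genes cannot be separated. Symbols were found for 55144 of 55471 IDs.

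Expected counts were rounded. The main test was edgeR's quasi-likelihood test (version 4.0.16, run in R 4.3.3) with TMM scaling, the filterByExpr filter and genotype as the only term. Benjamini-Hochberg adjustment covered all tested genes (threshold 0.05). An SE is the absolute log2 fold change divided by the root of F. Alternatives were RLE factors, library totals, TMM without the members, DESeq2 1.42.0, limma 3.58.1 (voom, or log2 of TPM plus 1 or plus 0.1), a filter of 1 CPM or none, a replicate block, pseudogene counts added to their parents, and leaving out each library. Both fits were run on simulated counts with the same spread for every gene and mean levels from the libraries other than WT replicate 3. A library that stands apart was not simulated, so this is no check on its effect. Levels are TPM, given without a test. Sequences and their coordinates are from RefSeq tables of GRCm38.p6.

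The members, lists, tests and the omission of WT replicate 3 were chosen with earlier results of these data known. Named genes followed a rule: the stalk genes, Rpsa, Rps6 and the paralog pairs, the most and least abundant tested members of each subunit, those with the smallest p in each direction or the extreme SDs, those with at most 3 counts in every library, and 2 genes of each other list. Some members are counted but not reported by name here. Any other member, and any marker other than Adgre1, Foxl2, Fshr, Zp3 and Gdf9, was named after its values were seen. Sperm and blastocyst samples were not analysed here.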

Additional observations from a re-analysis of the deposited data

How the results depend on the processing

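With all 6 libraries, the number of members called was 0 in each direction under every alternative except the omission of WT replicate 3 (0 to 12 higher when 1 library was left out). Their median log2 fold change, -0.35, turned to 0.15 with limma-voom, 0.16 and 0.14 with log2 of TPM plus 0.1 and plus 1, and 0.28 with the replicate block. The median ran from -0.69 to 0.93 when 1 library was left out. Without WT replicate 3, 12 members were called higher, and 92 of all 14122 genes were called in either direction. With DESeq2 the members became 43 (502 of 14122 genes), with limma-voom 2 (11) and with the replicate block 4 (37). With a filter of 1 CPM they became 25 (149 of 12052 genes), and with no count filter 46 and 1 lower (647 of 23463). When 1 KO library was left out as well, 1 to 23 were called higher (10 to 143 of all genes in either direction). The median, 0.93, ran from 0.80 to 1.35 when any 1 more library was left out. Where such a fit leaves 1 WT library, that library is assumed to vary like the others. No scaling alternative moved the median of all genes by over 0.1. Deviations from the group means correlated at 0.06, -0.11 and 0.01 between same-numbered libraries over 13680 genes, and at -0.13 to 0.13 between the others. With so few libraries, and WT replicate 3 among them, this cannot show whether same-numbered libraries were paired. The cause of the changes was not tested.

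For the named members with all 6 libraries, where none passed the test, the sign turned as follows (other members were not listed singly). With limma-voom it turned for Rpl10 (0.15), Rpl22l1 (0.11), Rpl7 (0.85), Rpl7l1 (0.20), Rpl9 (1.34), Rplp1 (0.039), Rps6 (0.33), Rps9 (0.86) and Rpsa (0.49). With log2 of TPM plus 0.1 it turned for Rpl10 (0.11), Rpl22 (0.12), Rpl22l1 (0.31), Rpl7 (1.12), Rpl7l1 (0.25), Rpl9 (1.65), Rps6 (0.41), Rps9 (1.06) and Rpsa (0.51). With log2 of TPM plus 1 these were 0.10, 0.10, 0.18, 0.97, 0.10, 1.29, 0.37, 0.93 and 0.30 in the same order. With the replicate block the sign turned for Rpl10 (0.22), Rpl22 (0.039), Rpl22l1 (0.35), Rpl39 (0.089), Rpl7 (1.20), Rpl7l1 (0.32), Rpl9 (1.81), Rplp1 (0.069), Rps6 (0.62), Rps9 (1.37) and Rpsa (0.95).

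When 1 library was left out, values ran from -0.545 to 0.93 for Rpl10, -0.20 to 0.37 for Rpl22, -1.12 to 1.57 for Rpl22l1, -0.37 to 3.79 for Rpl3, -1.24 to 0.95 for Rpl39, -0.44 to 0.10 for Rpl41, -1.19 to 2.602 for Rpl7, -0.93 to 0.83 for Rpl7l1, -3.05 to 1.002 for Rpl8, -1.50 to 3.64 for Rpl9, -0.66 to 0.60 for Rplp0, -0.34 to 0.43 for Rplp1, -0.20 to 2.42 for Rps20, -0.24 to 3.65 for Rps27, -0.475 to 0.026 for Rps4l, -1.44 to 0.74 for Rps4x, -1.16 to 1.84 for Rps6, -1.71 to 2.998 for Rps9 and -1.48 to 2.37 for Rpsa. The upper end came from the fit without WT replicate 3. As a share of expected counts in place of TPM, the members held 0.327% in WT and 0.272% in KO (means of 3, where WT replicates 1, 2 and 3 had 0.214%, 0.188% and 0.579% and KO replicates 0.255%, 0.293% and 0.267%), and the large subunit 52.5% and 50.7% of the members' counts. The depth limits the scarce genes most: Rpl9 and Rps27 each had 8 counts in WT replicate 2.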
